A study of Mus musculus with 24 samples.

Results

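The transcripts described here encode fatty acid binding proteins, a fatty acid uptake receptor and proteins of the lipid droplet surface, measured in the colon and liver of the same mice. They are 10 genes, chosen by the gene names printed on the array: Fabp1, Fabp2, Fabp5, Cd36, Adfp, Plin, S3-12, Cidea, Cideb and Cidec. Adfp, Plin and S3-12 are older names of Plin2, Plin1 and Plin4. They are 10 of 27962 distinct names (genes, transcripts or clones) on the array, which carried 12 probes for them among 41174. For Fabp2 and Cd36, which have more than 1 probe, the brighter one was taken as the main probe. Each value is the log2 ratio of a mouse sample (Cy3 dye) to a reference pool (Cy5 dye) on the same array, so a value of 0 equals the reference and each unit is a 2-fold step.

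The study used female C57BL/6 offspring sampled at 12 weeks of age. All dams ate HF-low, a high-fat diet with little selenium and folate, before mating and through gestation and lactation, so both groups share that early exposure. After weaning, offspring either stayed on HF-low (HF-low-low) or were moved to HF-suf, a high-fat diet that supplied enough of both nutrients (HF-low-suf). Each group had 6 mice, and each mouse gave RNA of whole colon and whole liver, which makes 24 arrays. Mice were fasted and then fed again before sampling. The reference was labelled as an equimolar pool of colon and liver RNA from all 12 mice. These were whole tissues, so fewer cells of a type and less RNA per cell cannot be told apart.

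Fatty acids enter cells partly through the receptor CD36 and are carried in the cytosol by fatty acid binding proteins, of which FABP1 is the abundant form of hepatocytes and FABP2 that of intestinal absorptive cells. Surplus fatty acids are stored as triglyceride in lipid droplets, which are coated by perilipins and enlarged by the CIDE proteins. Perilipin 2 coats droplets in most cells, whereas perilipin 1, perilipin 4 and CIDEC are best known from fat cells, CIDEA from brown fat cells, and CIDEB from hepatocytes and enterocytes, where it takes part in loading lipoproteins with lipid.

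The regulatory sequence shown is that of Fabp1, because its levels were the furthest apart between liver and colon. RefSeq promoter windows were found for 8 of the 10 genes. The 250 bases before the Fabp1 start lie at chr6:71199629-71199878 on the plus strand (GRCm38.p6), and are printed with a TATA box (TATAAA) and a direct repeat of AGGNCA 1 base apart, the form bound by PPAR receptors, in capitals.
Fabp1 promoter: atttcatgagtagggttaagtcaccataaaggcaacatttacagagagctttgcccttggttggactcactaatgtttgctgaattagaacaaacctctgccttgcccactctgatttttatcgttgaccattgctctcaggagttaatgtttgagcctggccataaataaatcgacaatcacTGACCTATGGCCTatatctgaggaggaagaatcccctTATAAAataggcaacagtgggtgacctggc

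The repeat is read on the minus strand from position -67 to -55 relative to the start and TATAAA begins at position -30. Searched on both strands, the repeat was in 0.338% of all 32851 windows of this length and TATAAA in 12.4%. Among the 9 windows of these genes, the repeat was in that of Fabp1 alone, and TATAAA was also in that of Cideb, at position -172. The single motif AGGTCA, which overlaps the repeat, was in 14% of all windows and in those of Fabp1, Cd36 and Adfp. These are matches of letters and not measured sites. The probes that carry the measurements for Fabp1, the second probe of Fabp2 and Cideb are given to show what the arrays hybridised.
Fabp1 probe: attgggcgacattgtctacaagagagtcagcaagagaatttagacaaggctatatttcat
Fabp2 second probe: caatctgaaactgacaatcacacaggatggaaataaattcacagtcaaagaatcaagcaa
Cideb probe: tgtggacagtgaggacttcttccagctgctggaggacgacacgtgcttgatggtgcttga

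Per the file headers they lie on build mm7 at chr6:71222913-71222972 (plus strand), chr3:122736043-122736102 (plus strand) and chr14:50622503-50622562 (minus strand). Exon and intron positions were not looked up, because the annotation at hand is of another build. The main Cd36 probe is 60 bases long but spans 2433 bases at chr5:16796811-16799243, so its match to the genome is split. The main probes of 6 other genes lie at chr3:122738629-122738688 (Fabp2, plus strand), chr3:10022040-10022099 (Fabp5, plus strand), chr4:86060498-86060557 (Adfp, minus strand), chr7:75590467-75590526 (Plin, minus strand), chr17:54259939-54259998 (S3-12, minus strand) and chr6:113585627-113585686 (Cidec, minus strand).

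The tissues were checked against marker genes. The hepatocyte list was higher in liver for 7 of 7 measured genes, led by Apoa2 (a difference of 6.68, SE 0.09) and Fgb (6.38, SE 0.10). The colon epithelium list was higher in colon for 7 of 8, led by Krt20 (-5.80, SE 0.16) and Car1 (-5.71, SE 0.12), and Aqp8 was the exception, higher in liver by 3.03 (SE 0.31). Median Cy3 signal was 3.78 to 7.20 times background across arrays, and 26.1% to 71.9% of probes were well above background by the scanner software's test, here called detected. Beside these markers, the 12 skeletal muscle markers averaged -5.12 to -4.31 in the colons and -4.76 to -2.45 in the livers. The means of 5 pancreas markers (-3.96 to -1.39) and 5 small intestinal enterocyte markers (-2.83 to -0.67) were below 0 on all 24 arrays as well, although within the enterocyte list Fabp6 averaged 0.997 in colon and Apoa4 2.06 in liver. The means of these lists were thus below a pool labelled as made from both tissues, which the series elsewhere describes as intestine and liver. What else the reference held was not tested.

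Liver and colon differed for most of these genes. In the comparison of liver with colon within mice, a probe was called when its adjusted P was below 0.05 and its fold change exceeded 1.5. By that rule 8 of the 10 main probes were called, against 23.6% of all probes. Many probes were dim, and among the 19080 brighter ones, detected on at least 6 arrays of a tissue, 8696 were called. Fabp1, Cideb, Adfp and Cd36 were higher in liver, where 11.4% of all probes were, and Plin, Cidec, S3-12 and Fabp2 were higher in colon, where 12.2% of all probes were. The median difference over the 10 genes was -0.36, beside 0.02 over all probes. Cidea and Fabp5 were not called.

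**Figure D1:**
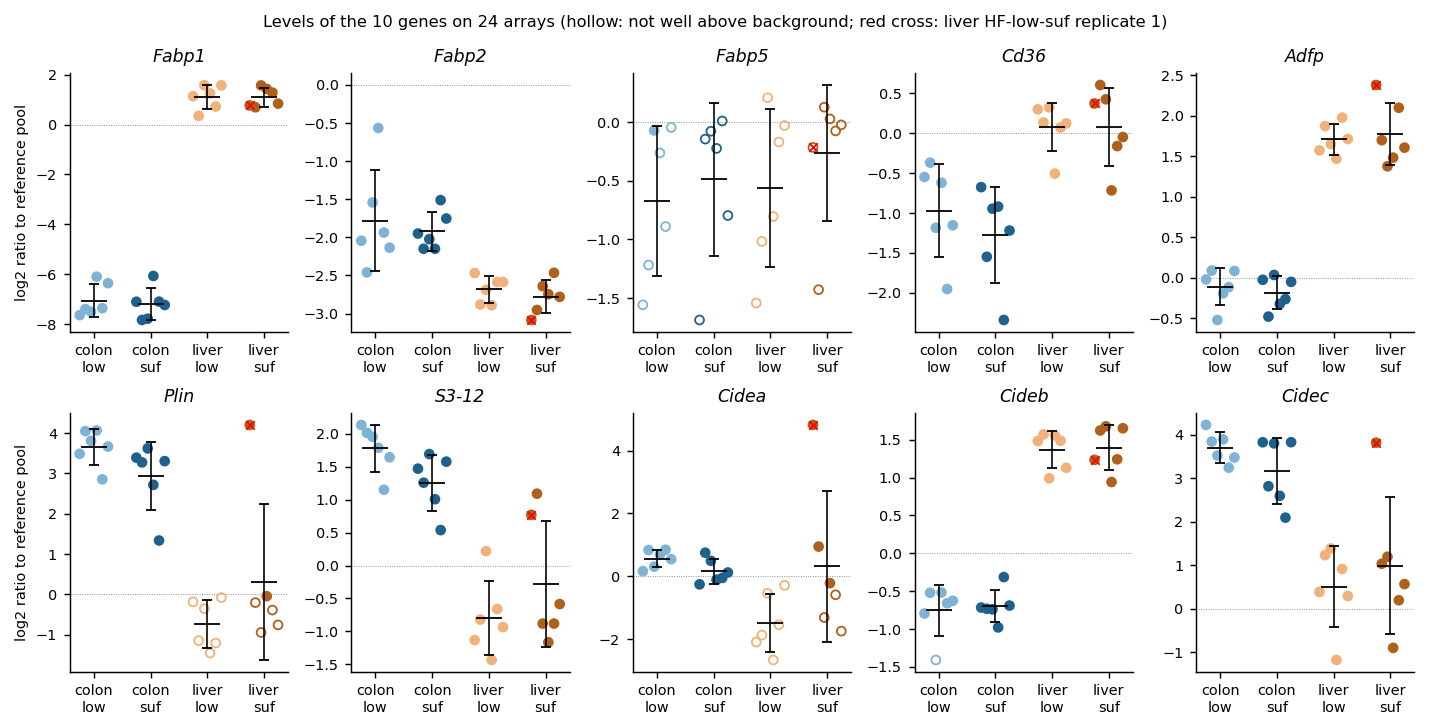
Log2 ratio to the reference pool for the main probe of each gene on every array, by tissue and diet, with the mean and SD of each group of 6. Hollow points were not detected and the red cross is liver HF-low-suf replicate 1, which lies at 4.20 for Plin, 4.82 for Cidea and 3.82 for Cidec. Fabp1, Fabp2, Adfp and Cideb show no overlap between the tissues.

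Fabp1, the main cytosolic fatty acid carrier of the liver, had the largest difference of the 10. Its log2 ratio in liver ran from 0.35 through a median of 1.20 to 1.58 on HF-low-low and from 0.70 through 1.06 to 1.57 on HF-low-suf. In colon it ran from -7.64 through -7.38 to -6.10 on HF-low-low and from -7.84 through -7.17 to -6.07 on HF-low-suf. No colon came near any liver, and replicate 4 had the highest colon value on both diets. The difference was 8.23 (SE 0.19, limma adjusted P = 5.25e-23), or 299.5-fold, and it was positive in 12 of 12 mice (exact sign-flip permutation P = 0.000488, the smallest that 12 pairs can give). Low as it was, Fabp1 was detected in 12 of 12 colons. Its reference signal was 263000 to 394000 units on colon arrays and 136000 to 308000 on liver arrays of the same pool, and across 27 alternative settings the difference ranged from 7.42 to 8.56.

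Fabp2, the intestinal form, lay below the reference on all 24 arrays. Its ratio in colon ran from -2.46 through -1.99 to -0.56 on HF-low-low and from -2.15 through -1.99 to -1.51 on HF-low-suf. In liver it ran from -2.89 through -2.64 to -2.47 on HF-low-low and from -3.08 through -2.76 to -2.47 on HF-low-suf. Every colon was above every liver, though the lowest colon and the highest liver were nearly equal, and colon HF-low-low replicate 4 was the highest. The difference was -0.88 (SE 0.14, limma adjusted P = 7.84e-06), a 1.84-fold higher level in colon, and it held in 12 of 12 mice. The second Fabp2 probe, whose sequence is printed with that of Fabp1, gave -0.36 (SE 0.13, adjusted P = 0.0282) with overlapping tissues. That is the same direction, under the fold threshold, and it held in 9 of 12 mice.

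Fabp5, the epidermal type, could not be compared. It was detected in 1 of 12 colons and 0 of 12 livers, so its differences, which enter the medians over the 10 genes, compare values near background. Cd36, which takes up long-chain fatty acids, was higher in liver. It ran from -1.95 through -0.89 to -0.37 in colon on HF-low-low and from -2.34 through -1.08 to -0.68 on HF-low-suf, against -0.51 through 0.13 to 0.32 and -0.72 through 0.16 to 0.60 in liver on the same diets. The tissues overlapped at their edges, but liver was higher in 12 of 12 mice by 1.20 on average (SE 0.18, limma adjusted P = 3.13e-06). The second Cd36 probe gave 1.34 (SE 0.21), so both probes ran the same way.

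**Figure D2:**
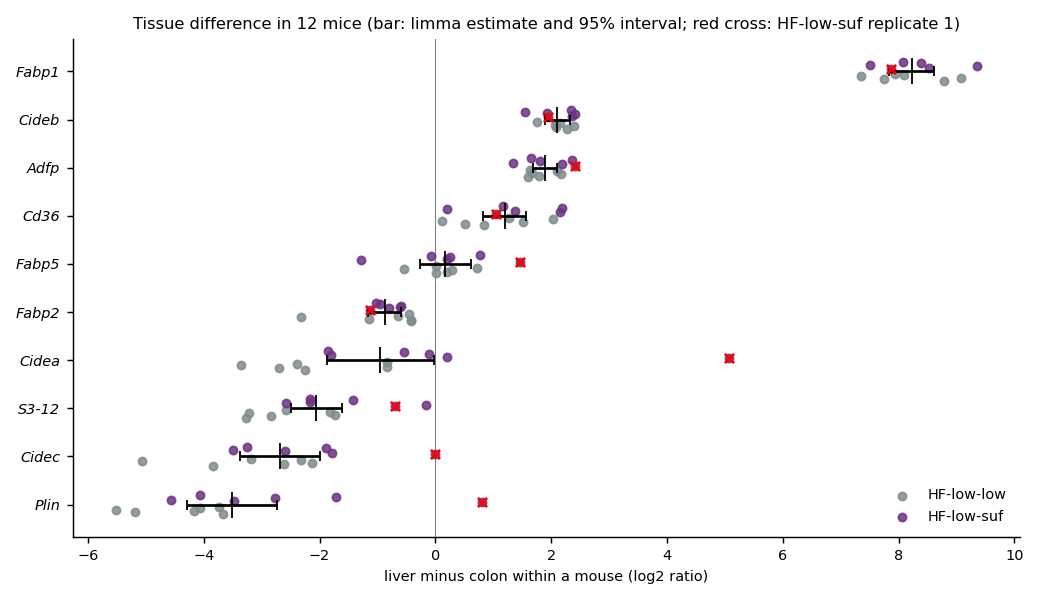
Liver minus colon within each of 12 mice, in log2 ratio, for the main probe of each gene, with the limma estimate and its 95% interval in black. Fabp1 stands at 8.23, and the mouse marked by the red cross, HF-low-suf replicate 1, is the only one above 0 for Plin.

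Among the perilipins, Adfp ran opposite to the other two. Adfp, which coats droplets in hepatocytes and most other cells, ran from 1.47 through 1.68 to 1.98 in liver on HF-low-low and from 1.38 through 1.65 to 2.38 on HF-low-suf. In colon it ran from -0.52 through -0.07 to 0.09 and from -0.48 through -0.16 to 0.03. The tissues did not overlap, and the difference was 1.89 (SE 0.10, limma adjusted P = 1.38e-14), or 3.71-fold higher in liver.

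Plin, the perilipin of fat cells, was higher in colon. It ran from 2.85 through 3.74 to 4.07 in colon on HF-low-low and from 1.34 through 3.29 to 3.62 on HF-low-suf. It was detected in 0 of 6 livers on HF-low-low and in 2 of 6 on HF-low-suf. Replicate 1 of HF-low-suf was at 4.20 and the other 5 livers of that diet lay between -0.95 and -0.05. The difference was -3.51 (SE 0.38, limma adjusted P = 1.24e-08), and without that liver it was -3.89 (SE 0.22). With 2 of 12 livers detected, its size rests mostly on values near background, and it ran from -5.08 to -3.22 over 27 alternative settings. S3-12, the perilipin of small new droplets in fat cells, was measured in every liver. It ran from 1.15 through 1.87 to 2.14 in colon on HF-low-low and from 0.54 through 1.37 to 1.69 on HF-low-suf. In liver it ran from -1.43 through -0.88 to 0.22 and from -1.17 through -0.73 to 1.09, a difference of -2.06 (SE 0.21, limma adjusted P = 6.82e-09) that held in 12 of 12 mice.

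The CIDE genes split in the same manner. Cideb ran from 0.99 through 1.48 to 1.57 in liver on HF-low-low and from 0.94 through 1.43 to 1.68 on HF-low-suf, and from -1.41 through -0.64 to -0.52 and from -0.98 through -0.72 to -0.31 in colon. The tissues did not overlap, and liver was higher by 2.11 (SE 0.10, limma adjusted P = 1.92e-15), or 4.31-fold. Cidec, which fuses droplets into the large ones of white fat, went the other way. It ran from 3.25 through 3.69 to 4.23 in colon on HF-low-low and from 2.10 through 3.31 to 3.83 on HF-low-suf, and in liver from -1.17 through 0.65 to 1.39 and from -0.89 through 0.81 to 3.82. Colon was higher by 2.68 on the log2 scale (a difference of -2.68, SE 0.34, limma adjusted P = 1.74e-07), and the liver at 3.82 was replicate 1 of HF-low-suf.

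Cidea, the brown fat member, was called or not depending on that same liver and on the processing. In colon it ran from 0.17 through 0.62 to 0.85 on HF-low-low and from -0.25 through 0.04 to 0.75 on HF-low-suf. It was detected in 0 of 6 livers on HF-low-low and in 3 of 6 on HF-low-suf. With all arrays the difference was -0.95 (SE 0.45, limma adjusted P = 0.101), and without liver HF-low-suf replicate 1 it was -1.41 (SE 0.25, adjusted P = 4.5e-05), where it was called. With that liver kept, it was also called under plain background subtraction (-1.39), Feature Extraction signals (-2.37) and median centring (-1.03). Only 3 of 12 livers detected it, and over the alternative settings the difference ran from -2.37 to -0.39.

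Markers of fat cells moved with Plin, Cidec and S3-12 between the tissues. The list of 12 adipocyte markers, which holds none of the 10 genes but shares Fabp4 and Lipe with the list of other lipid handling genes, averaged 0.38 to 1.70 in the 12 colons, with 6 to 10 of its genes detected. In 11 livers it averaged -1.18 to -0.16, with 1 to 5 genes detected, and in liver HF-low-suf replicate 1 it was 1.78, with 7 genes. Cfd (a difference of -5.93, SE 0.52) and Adipoq (-3.95, SE 0.39), an adipocyte complement factor and adiponectin, were among the 7 of 12 markers called higher in colon, and no marker was called higher in liver. Cfd was detected in 6 of 12 livers and Adipoq in 1 of 12, so the sizes of their differences rest largely on values near background. The markers' part in the tissue difference of the droplet genes was not tested.

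**Figure D3:**
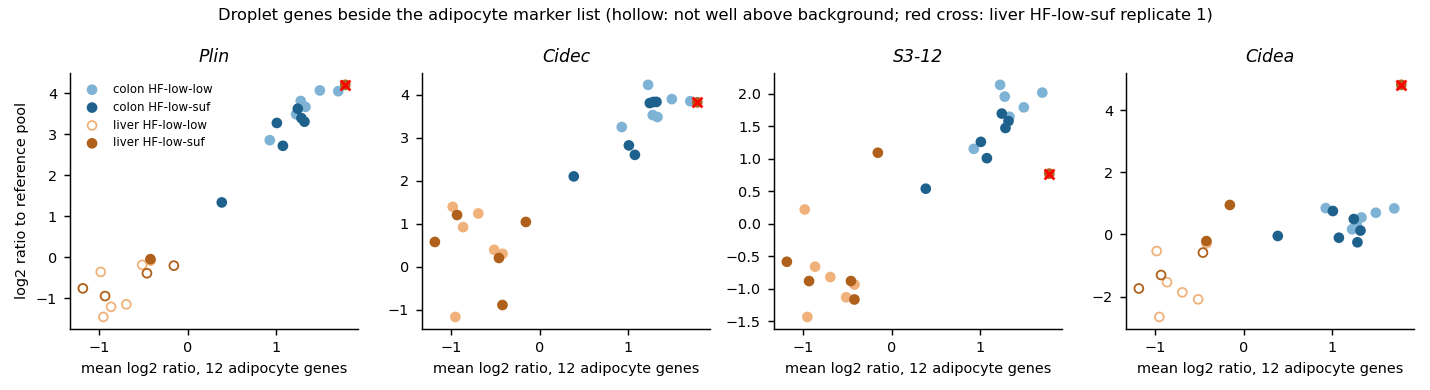
Log2 ratio of Plin, Cidec, S3-12 and Cidea on each of 24 arrays against the mean log2 ratio of the 12 adipocyte markers on that array. Colons lie between 0.38 and 1.70 on the marker axis and 11 livers below 0, while liver HF-low-suf replicate 1 (red cross) lies at 1.78, within the range of the colons for Cidec and S3-12 and above it for Plin and Cidea.

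Liver HF-low-suf replicate 1 stood apart in these markers. Of the 12 adipocyte markers, 9 were higher there than in any other liver. Adipoq was at 3.14 and Cfd at 3.68, whereas the highest of the other livers were at -0.38 and -0.72. Fabp4, the binding protein of fat cells, was at 2.24 there and at most at -0.92 in the other livers. Ucp1, the uncoupling protein that defines brown fat cells, was singled out after its values were seen. It stood at 4.99 there, between -0.58 and 0.37 in the 11 other livers and between -1.27 and 0.20 in the colons, and was detected on that array alone. Cidea was likewise higher there than in any colon, while S3-12, at 0.77, was below that of liver HF-low-suf replicate 2, at 1.09. The mean of its hepatocyte list, 1.49, lay within the range of its group, 1.45 to 1.87.

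Moving from HF-low to HF-suf after weaning was compared in each tissue with a threshold of P below 0.01 together with more than 1.5-fold change. In the liver 0 of the 10 genes passed, against 0.117% of all probes, and 0 would be called after adjustment (limma adjusted P = 1 for each). At an unadjusted P below 0.05, 0 of the 10 passed in liver, against 2.13% of all probes. Signs follow the dyes and diets as labelled, with positive values higher in HF-low-suf. By them Slc2a4 was higher by 1.26 in liver on HF-low-suf, whereas the study lists it as lower. In the study's Methods 1 sentence, naming Slc22a4, words the change both as increased and as down-regulated. In colon 66 probes were called higher and 3 lower, whereas the study describes most of its listed colon genes as decreased. With the sign of those lists, every difference by diet given here would turn. Exchanging the dyes would turn the tissue differences too, by which every measured hepatocyte marker was higher in liver. Where the opposite sign arose was not tested. Mb, the myoglobin gene, whose transcript and protein the study describes as higher on HF-suf, does not settle the sign. It differed by 0.65 (SE 0.48) in liver, and its highest value, 0.73, was that of HF-low-suf replicate 2, the liver with the highest skeletal muscle list. The median difference over the 10 genes was 0.18, beside 0.01 over all probes. It includes liver HF-low-suf replicate 1 and is smaller without that array.

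The carriers and the hepatocyte droplet proteins showed small differences in liver. Fabp1 differed by -0.01 (SE 0.23, 95% interval -0.50 to 0.49), Cd36 by 0.01 (SE 0.22), Adfp by 0.07 (SE 0.18, interval -0.31 to 0.44) and Cideb by 0.03 (SE 0.16, interval -0.33 to 0.38). None of these intervals excluded 0. Fabp2 differed by -0.09 (SE 0.13).

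The fat cell genes had the larger and more uncertain values in liver. Cidea differed by 1.81 (SE 0.88, 95% interval -0.08 to 3.71). On HF-low-low it lay at -2.66, -2.09, -1.87, -1.54, -0.54 and -0.29, none detected, and on HF-low-suf at 4.82, 0.95, -0.21, -0.59, -1.31 and -1.74. Replicates 1 and 2 of HF-low-suf lay clearly above the range of the other diet, replicate 4 lay just above it at -0.21, and the remaining 3 lay within it. The exact permutation P was 0.0714 over 924 assignments, and 0.149 over 462 without replicate 1, where the difference was 0.92 (SE 0.50). Without replicates 1 and 2 it was 0.53 (SE 0.45).

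The array of liver HF-low-suf replicate 4, 1 of the 3 on which Cidea was detected and 1 of the 2 for Plin, stood apart in quality. It had 8.75% outlier-flagged spots and 59.6% of probes detected, against 26.1% to 46.8% in the other livers. Without it Cidea differed by 1.92 (SE 0.95) and Plin by 1.12 (SE 0.76).

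Plin averaged -0.74 on HF-low-low, where no array detected it, and 0.31 on HF-low-suf. The difference was 1.05 (SE 0.70, exact permutation P = 0.197), and without replicate 1 it was 0.27 (SE 0.28). No fold is given for Cidea or Plin by diet in liver, because 3 and 4 of the HF-low-suf livers did not detect them either. S3-12 differed by 0.52 (SE 0.39) and without replicate 1 by 0.31 (SE 0.38). Cidec differed by 0.48 (SE 0.64) and without replicate 1 by -0.09 (SE 0.46), so its sign turned with that liver. Without replicates 1 and 2 of HF-low-suf, Plin differed by 0.20 (SE 0.30), Cidec by -0.24 and S3-12 by -0.085 (SE 0.27), so the sign of S3-12 turned as well. The adipocyte list averaged -0.98 to -0.42 in the livers on HF-low-low and -1.18 to 1.78 on HF-low-suf, or -1.18 to -0.16 without replicate 1. Its part in these values was not tested. Replicate 2 of HF-low-suf, the other high liver for Cidea and S3-12, had the highest adipocyte list after replicate 1. It was at -0.16, with the next liver at -0.42. Replicate 2 also had the highest skeletal muscle list of all livers, at -2.45 against at most -3.73 in the rest of its group.

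**Figure D4:**
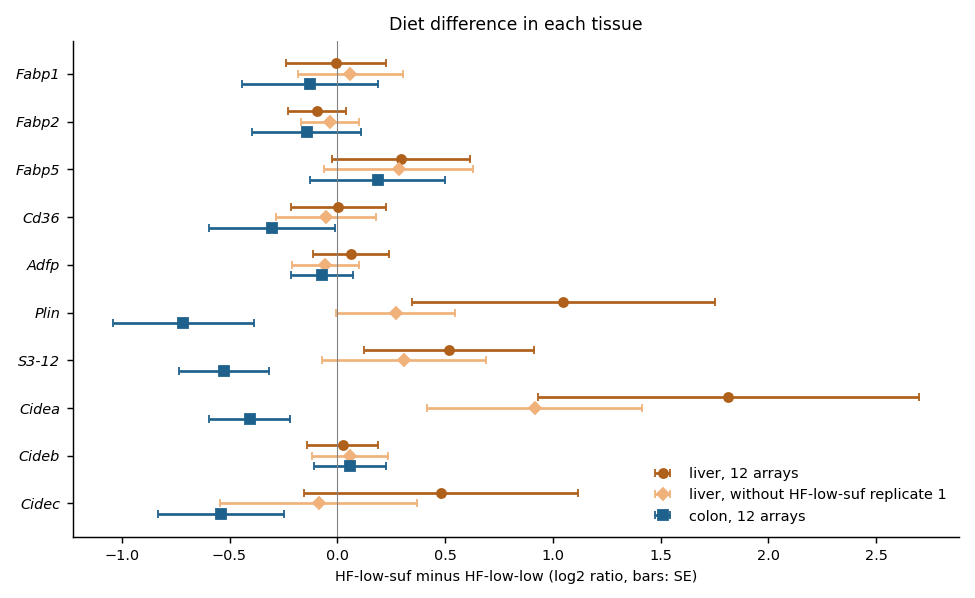
Difference between diets (HF-low-suf minus HF-low-low, log2 ratio, bars show the SE) for the main probe of each gene in liver, in liver without HF-low-suf replicate 1, and in colon. In liver, Cidea lies at 1.81 and Plin at 1.05, and at 0.92 and 0.27 without that array, while in colon Plin lies at -0.71 and S3-12 at -0.52.

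In the colon too, 0 of the 10 genes passed the threshold, against 0.168% of all probes. At an unadjusted limma P below 0.05 were Plin, S3-12 and Cidea, 3 genes, against 2.98% of all probes (limma adjusted P = 1 for each). All 3 were lower on HF-low-suf by the labels, and higher with the sign turned. The median over the 10 genes was -0.22, beside -0.01 over all probes. S3-12 lay at 2.14, 2.02, 1.96, 1.79, 1.15 and 1.65 on HF-low-low, in order of replicate, and at 1.47, 1.26, 1.69, 1.01, 0.54 and 1.58 on HF-low-suf. The ranges overlapped, and S3-12 was lower on HF-low-suf in each pair that shared a slide, 6 of 6, which would read as higher in 6 of 6 with the sign turned. With median centring, or with all 24 arrays in one fit, none of the 3 genes had an unadjusted limma P below 0.05, and with Feature Extraction signals or the Cy3 channel alone only S3-12 did. The difference for S3-12 was -0.52 (SE 0.21, limma P = 0.0231, exact permutation P = 0.0411), under the fold threshold.

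Plin lay at 3.49, 4.05, 3.81, 4.07, 2.85 and 3.66 on HF-low-low and at 3.39, 3.27, 3.62, 2.72, 1.34 and 3.30 on HF-low-suf, again lower on 6 of 6 slides. Its difference was -0.71 (SE 0.33, limma P = 0.0438, exact permutation P = 0.0714). With the replicate block, which takes out differences between slides, Plin was called (-0.71, SE 0.21, limma adjusted P = 1), and S3-12 (SE 0.15) stayed under the fold threshold at 1.44-fold. Without replicate 5 of HF-low-low, S3-12 was called at -0.65 (SE 0.20). Replicate 5 of HF-low-suf was the lowest colon for Plin, S3-12, Cidec and Cd36, and on its array the reference signal was the brightest, at 18.1 times background. Its adipocyte list was also the lowest of the colons, at 0.38 beside 0.92 in the next. Without it Plin differed by -0.39 (SE 0.22), S3-12 by -0.38 (SE 0.19), Cidec by -0.33 (SE 0.26) and Cd36 by -0.09 (SE 0.26).

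Cidea differed by -0.41 (SE 0.19, exact permutation P = 0.0693) in colon and Cidec by -0.54 (SE 0.29, exact permutation P = 0.132). By scan day, Cidea differed by -0.11 (SE 0.31) among the 3 slides of the first day and by -0.71 (SE 0.19) among the 3 of the second, where it passed the threshold. Of the 12 adipocyte markers, 0 had an unadjusted limma P below 0.05 by diet in colon. Their mean ran from 0.92 through 1.30 to 1.70 on HF-low-low and from 0.38 through 1.16 to 1.32 on HF-low-suf, lower on 5 of 6 slides, with differences within slides of -0.69 to 0.06. Their part in the lower droplet genes was not tested. Fabp1 (-0.13, SE 0.31), Fabp2 (-0.14, SE 0.25), Adfp (-0.07, SE 0.14) and Cideb (0.06, SE 0.17) differed by less than their SE in colon, and Cd36 by -0.30 (SE 0.29).

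The difference between the tissues in response to diet was itself tested. No probe of the array passed an adjusted P below 0.05 (0%; limma, with 2646 probes at an unadjusted P below 0.05). The values were positive for Cidea (2.22, SE 0.89, adjusted P = 0.692), S3-12 (1.04, SE 0.43, adjusted P = 0.71) and Plin (1.76, SE 0.76, adjusted P = 0.724), so the opposite signs in liver and colon did not pass the correction. Without liver HF-low-suf replicate 1 Cidea was at 1.31 (SE 0.50), Plin at 0.998 (SE 0.44) and S3-12 at 0.84 (SE 0.41), and none passed. Cidea and Plin were detected in 0 of 6 livers on HF-low-low, so the sizes of their values rest partly on signals near background.

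Genes that handle the same lipids gave the setting for these values. Of 41 other lipid handling genes, all found on the array, 22 were called higher in liver and 9 higher in colon, with a median difference of 0.90. Among other carriers, Scp2 (2.74) and Fabp7 (2.65, detected in 5 of 12 colons) were higher in liver, and Fabp4 (-3.71) higher in colon. The bile acid carrier Fabp6 was also called higher in colon and was detected in no liver. Of 16 uptake and activation genes, 8 were higher in liver, led by the liver fatty acid transporters Slc27a5 (6.56) and Slc27a2 (6.33) and the lipoprotein receptor Scarb1 (2.85), and 4 higher in colon, led by the caveola protein Cav1 (-3.98).

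Of 8 other droplet proteins, 6 were higher in liver, with Plin5, the perilipin of oxidative tissues, at 4.79 (SE 0.13), Hsd17b13 at 3.51 (SE 0.13), the lipase inhibitor G0s2 at 1.88 (SE 0.17) and Fitm1 at 1.16 (SE 0.18). Of 6 lipases and partners, Ces3 (3.37) and monoglyceride lipase Mgll (1.34) were higher in liver and the triglyceride lipase Pnpla2 (-0.72) higher in colon. Of 5 transcription factors, the liver X receptor Nr1h3 (2.33), Cebpa (1.72) and Ppara (0.94) were higher in liver, and Pparg (-1.42), the regulator of fat cell genes, higher in colon. By diet 0 of the 41 passed the threshold in liver and 0 in colon. The 1 with an unadjusted limma P below 0.05 was Acsl6 in colon (0.44, SE 0.19), which was detected in 1 of 12 colons.

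**Figure D5:**
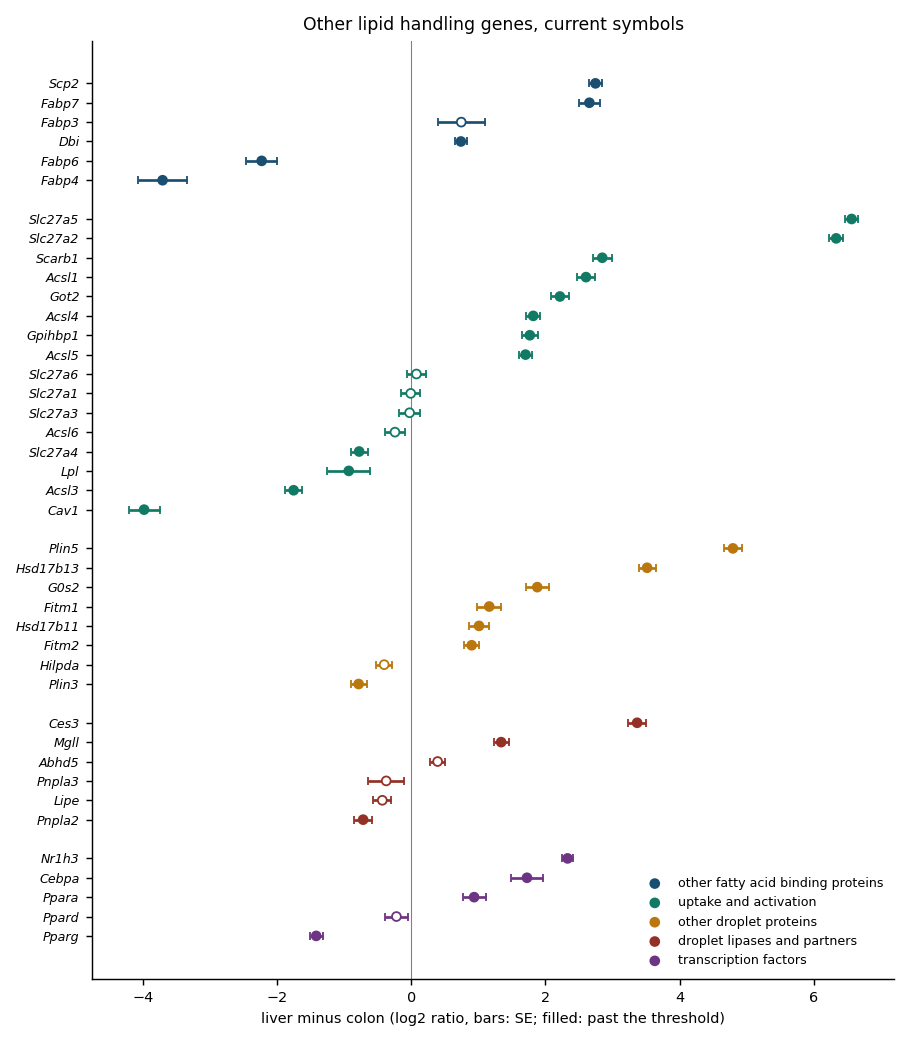
Liver minus colon difference in log2 ratio, with its SE, for 41 other lipid handling genes in 5 groups, under their current symbols. Filled points passed the threshold: 22 lie to the right of 0, higher in liver, and 9 to the left.

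Across the 12 arrays of 1 tissue, the genes whose pattern was most like that of a droplet gene were ranked by Pearson r, a description over arrays that share 1 reference and 6 slides. For Plin in colon they were Adipoq (0.958), 1110038O08Rik (0.943), Slc7a10 (0.943), Nnmt (0.941) and Sncg (0.936). For Cidec in colon they were Cyp2e1 (0.903), S3-12 (0.901), Inmt (0.898), Slc27a1 (0.862) and Acsl1 (0.853). For Fabp2 in colon they were Aqp8 (0.941), Clec2h (0.933), Clca6 (0.915), AI747448 (0.912) and Ccdc93 (0.895). For S3-12 in liver they were Rfxank (0.946), Pnpla2 (0.918), Narfl (0.902), Rpl36 (0.893) and Mt1 (0.889).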

How the data were processed

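Mouse 4x44K Agilent arrays were scanned in both colours, and the deposited files hold the mean pixel intensity of each spot, made by the authors with Feature Extraction 9.5.3.1 per the file headers. Intensities were corrected with normexp (offset 50) on the local background, turned into log2 ratios of Cy3 to Cy5, and normalised within arrays by loess in limma 3.58.1 (R 4.3.3). Control spots and outlier-flagged spots were left out and spots of a probe averaged. Dyes were not swapped. Each slide carried 1 array of each group under 1 replicate number, and slides were scanned on 2 days.

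Diets were compared within a tissue, and tissues over 24 arrays with mouse as a random block (correlation 0.158), by limma across 41174 probes with Benjamini-Hochberg adjustment. Single genes were also tested by exact permutation over mice. Same-numbered arrays deviated together in 2 of 6 liver pairs and 3 of 6 colon pairs (r above 0.1, range -0.50 to 0.53). The numbers were thus taken to share a slide only, and the fit without the block is given first. These few pairs cannot show whether the slide had an effect, and the permutations by diet left the slide out. The precision is limited by the number of arrays. The fits were tested on simulated data.

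The genes, lists and tests were chosen with earlier results of these data known. By rule, the 10 genes were named, up to 4 genes of each list with the largest differences, and the 5 most alike genes for at most 4 of them. Of 23837 RefSeq mRNA accessions, 22937 matched a current symbol. Alternatives covered background correction, normalisation, dim probes, slides, scan days, blocks and leaving out arrays. 1 file listing arrays held no measurement and was not used.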

Additional observations from a re-analysis of the deposited data

Results flagged for a closer look

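Within groups of 6 arrays, 4 of 40 sets of values held an array further from its neighbour than Dixon's 95% limit. Chance alone gives about 1 in 20 for independent sets. These sets share arrays, so the count is not read as an excess. Plin stood at 4.20 in liver HF-low-suf replicate 1, with the next liver of the group at -0.05. Cd36 stood at -0.51 in liver HF-low-low replicate 4, with the next at 0.07. Cideb stood at -1.41 in colon HF-low-low replicate 3, the only colon array on which it was not detected, with the next at -0.79. Fabp5 stood at -1.43 in liver HF-low-suf replicate 2, with the next at -0.22, both not detected.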

How the results depend on the processing

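Of the 10 genes, 8 were called between the tissues under the main settings and 8 to 9 when 1 mouse was left out, and 9564 to 10004 probes were then called beside 9709. Cidea was the gene that joined: it was called under plain background subtraction (-1.39), Feature Extraction signals (-2.37), median centring (-1.03), the second scan day alone (-1.51), without the HF-low-suf replicate 1 mouse (-1.44), without that liver (-1.41) and without the livers of HF-low-suf replicates 1 and 2 (-1.59). Feature Extraction signals moved the median tissue difference of all probes from 0.02 to -0.19 and the calls higher in liver and colon from 4688 and 5021 to 5749 and 8023, and median centring moved them to 2675 and 6472. Fabp5, which was dim, turned to -0.054 between tissues and -0.22 by diet in colon with the Cy3 channel alone.

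Diet calls over the array were unstable. In liver, 48 probes became 12 without background correction, 2 with median centring, 20 with Cy3 alone, 2 among brighter probes, 2 on the second scan day alone, 31 without HF-low-suf replicates 1 and 2, 137 with all arrays in one fit, and 9 (without HF-low-low replicate 1) to 304 (without HF-low-low replicate 3) leaving out 1 array. Plain subtraction turned the liver split from 40 higher and 8 lower to 19 and 36. In colon, 69 became 13 without background correction, 26 with median centring, 3 among brighter probes, 278 on the first scan day alone, and 23 (without HF-low-low replicate 1) to 257 (without HF-low-low replicate 5). With the replicate number as a block, 135 probes were called in liver, 92 in colon and 9658 between tissues, and the block changed the call of 1 of the 10 genes, Plin in colon. Of the 10 genes in colon, 0 to 1 was called when 1 array was left out, S3-12 without HF-low-low replicate 5 (-0.65), and 1 on the second scan day alone, Cidea (-0.71). Signs turned for S3-12 (-0.085) and Cidec (-0.24) in liver without HF-low-suf replicates 1 and 2, for Adfp in colon with median centring (0.081), and for Fabp2 in the difference between the tissues in response to diet, which ran from -0.24 (without HF-low-low replicate 4) to 0.14 leaving out 1 mouse. Over all 10 genes and settings the sign turned in 37 of 247 liver values, 12 of 239 colon values, 1 of 269 tissue values and 18 of 269 values of the tissues' difference in response to diet, and those named here are the ones that also moved by more than their SE. The cause was not tested for any of these. No probe was called for the difference between the tissues in response to diet under any setting. Plin, Cidea and Fabp5 in liver and Fabp5 in colon are limited by signals near background.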
